A study of Homo sapiens with 6 samples.

Results

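DNA repair genes were examined as 57 named genes of homologous recombination, the Fanconi anaemia pathway, end joining, mismatch repair, nucleotide excision repair, base excision repair and break signalling, out of 19821 coding genes with a place on chromosomes 1 to 22 or X. A gene was called marked when a peak lay within 1 kb of either of its ends, in each peak list separately, and all 57 genes were placed with a RefSeq gene table of the hg38 assembly. The peaks came from chromatin immunoprecipitation and sequencing with BG4, an antibody directed at DNA G-quadruplexes (G4s), in U2OS cells, a human osteosarcoma line. The cells had been treated with 1,6-hexanediol (HD), an alcohol that dissolves many biomolecular condensates, or were left without treatment (Ctrl), and chromatin of both groups was fixed with formaldehyde. For HD, as for Ctrl, 2 ChIP libraries and 1 input library were made from this cell line, and a single list of peaks was analysed. The hexanediol dose and exposure time are not stated in the labels used here. The question put to these genes is where BG4 peaks are called with and without hexanediol. No measure of condensates is among these libraries.

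The genes of this group act in several pathways of DNA repair. Mismatch, base excision and nucleotide excision repair replace bases or short stretches on a single strand. Homologous recombination, the Fanconi anaemia pathway and end joining deal with double-strand breaks and crosslinked strands. A G4 is a stacked fold of a guanine-rich single strand, and many promoters hold the runs of guanines that can form it.

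The HD list held 2269 peaks and the Ctrl list held 3507. With 1 list per condition, the error between libraries is unknown and HD was not tested against Ctrl. All 2269 names of HD peaks carry the number of replicate 1, and the Ctrl names carry none, so it is not known from these sources whether the HD list rests on both libraries. ChIP fragments at each summit were recovered from the peak caller's fold and p-value. The genome-wide mean was 5.51 fragments per base in HD and 3.74 in Ctrl, so fragment coverage was 1.47 times as deep in HD. The lowest number of fragments at any called summit was 20 in HD and 15 in Ctrl, which is 3.63 and 4.01 times the genome-wide mean of each list. Intervals on fragments and shares are exact 95% Poisson and binomial intervals and cover counting error only.

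The stretches of 250 bases before the start are shown for 8 of these genes, which differ in peaks and in motif. BARD1, LIG1 and TP53BP1 had a peak in both lists and hold the G4 motif searched for here. PMS2 and ERCC4 had a peak in both lists and lack it. MSH6 had the best-ranked HD peak of the group and no Ctrl peak, RAD51C had a Ctrl peak and no HD peak, and RAD54L holds the motif with no peak in either list. The sequences are from RefSeq, build GRCh38.p14, and run 5′ to 3′ on the strand of the gene up to the base before its start. Capitals mark the motif, which is 4 runs of at least 3 G separated by 1 to 7 bases. In the genes shown it lies on the strand opposite the gene and is therefore read here as runs of C.
BARD1 (chr2:214809684-214809933, minus strand): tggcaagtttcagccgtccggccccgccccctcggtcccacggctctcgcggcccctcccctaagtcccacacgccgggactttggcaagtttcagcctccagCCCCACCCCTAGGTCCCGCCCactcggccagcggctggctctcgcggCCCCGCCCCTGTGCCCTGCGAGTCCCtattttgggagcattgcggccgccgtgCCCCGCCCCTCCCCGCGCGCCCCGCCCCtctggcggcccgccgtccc
LIG1 (chr19:48170345-48170594, minus strand): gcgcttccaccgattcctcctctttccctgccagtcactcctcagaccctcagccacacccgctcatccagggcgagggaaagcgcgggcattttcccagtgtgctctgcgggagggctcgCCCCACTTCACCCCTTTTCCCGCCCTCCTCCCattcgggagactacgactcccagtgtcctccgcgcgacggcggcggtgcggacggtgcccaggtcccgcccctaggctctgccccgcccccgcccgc
TP53BP1 (chr15:43510641-43510890, minus strand): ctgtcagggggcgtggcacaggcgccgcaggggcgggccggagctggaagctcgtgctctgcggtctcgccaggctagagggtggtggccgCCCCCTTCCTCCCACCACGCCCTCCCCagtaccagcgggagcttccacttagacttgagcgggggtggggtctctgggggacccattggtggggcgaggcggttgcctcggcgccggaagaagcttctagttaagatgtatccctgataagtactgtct
PMS2 (chr7:6009107-6009356, minus strand): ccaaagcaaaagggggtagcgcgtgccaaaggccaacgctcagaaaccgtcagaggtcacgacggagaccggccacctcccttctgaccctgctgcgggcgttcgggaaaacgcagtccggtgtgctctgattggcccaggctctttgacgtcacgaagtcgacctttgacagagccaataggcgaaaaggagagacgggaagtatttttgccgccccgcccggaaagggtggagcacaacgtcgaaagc
ERCC4 (chr16:13919904-13920153, plus strand): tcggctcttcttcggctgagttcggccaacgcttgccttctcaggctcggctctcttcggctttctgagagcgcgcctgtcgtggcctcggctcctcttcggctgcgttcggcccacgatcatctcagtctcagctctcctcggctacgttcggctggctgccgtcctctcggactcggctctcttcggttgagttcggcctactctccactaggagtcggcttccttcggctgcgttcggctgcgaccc
MSH6 (chr2:47782895-47783144, plus strand): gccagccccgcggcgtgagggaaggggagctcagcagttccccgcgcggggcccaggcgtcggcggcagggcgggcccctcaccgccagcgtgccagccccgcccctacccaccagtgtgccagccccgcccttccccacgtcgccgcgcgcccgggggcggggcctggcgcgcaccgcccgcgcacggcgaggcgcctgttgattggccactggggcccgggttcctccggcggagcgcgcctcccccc
RAD51C (chr17:58692323-58692572, plus strand): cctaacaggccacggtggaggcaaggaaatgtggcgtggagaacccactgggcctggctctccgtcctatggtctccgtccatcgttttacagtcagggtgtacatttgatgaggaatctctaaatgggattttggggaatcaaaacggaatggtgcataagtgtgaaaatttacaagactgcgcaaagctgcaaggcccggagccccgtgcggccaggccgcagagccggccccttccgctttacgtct
RAD54L (chr1:46247438-46247687, plus strand): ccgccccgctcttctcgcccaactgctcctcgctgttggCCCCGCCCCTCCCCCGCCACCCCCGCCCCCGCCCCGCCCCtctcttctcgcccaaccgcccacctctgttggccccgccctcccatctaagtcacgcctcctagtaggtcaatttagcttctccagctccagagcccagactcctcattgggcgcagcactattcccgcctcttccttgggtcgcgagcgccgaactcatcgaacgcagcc
Among the sequences with the motif, the stretch before BARD1 has 21 runs of at least 3 C, that of LIG1 has 16, that of RAD54L has 16 and that of TP53BP1 has 6. Before MSH6 there are 14 runs of C and 9 of G, in a stretch of 81.2% G and C, spaced so that no 4 of them meet the motif. Before ERCC4 there are 2 runs of C and 0 of G. Over the upstream stretches of the repair genes, the strand richer in such runs had a median of 7, against 8 for other coding genes.

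HD peaks marked 12 of the 57 repair genes (21.1%, interval 11.4 to 33.9), against 8.08% of the other 19764 coding genes. Ctrl peaks marked 8 of the 57 (14.0%, 6.26 to 25.8), against 10.9% of the other coding genes. The interval of the HD share lay above its background and that of the Ctrl share included its background, but these intervals overlapped each other. They treat genes as independent draws, and the genes were chosen with earlier results of these data known. Neither an excess over background nor a difference between HD and Ctrl was tested. Both lists marked 6 repair genes (10.5%, against 5.18% of other coding genes), HD peaks alone marked 6 (10.5%, against 2.89%) and Ctrl peaks alone marked 2 (3.51%, against 5.71%). Among the other coding genes the HD list marked fewer genes than the Ctrl list, with 572 marked in HD alone and 1128 in Ctrl alone. The genes marked in both lists were BARD1, FANCG, PMS2, ERCC4, LIG1 and TP53BP1. Those marked in HD only were MSH6, XRCC6, FANCA, DDB2, ERCC6 and OGG1, and those marked in Ctrl only were RAD51C and DDB1. The remaining 43 genes (75.4%) had no peak within 1 kb of an end in either list. The other coding genes were not matched on expression, and the part of that in these shares was not tested.

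**Figure D1:**
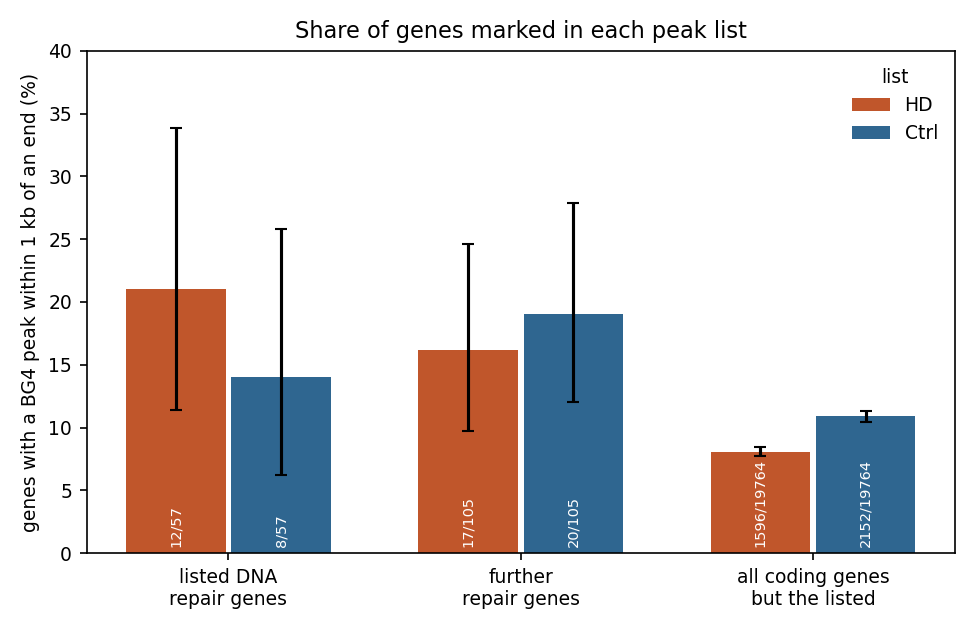
Share of genes with a BG4 peak within 1 kb of a gene end in the HD and Ctrl lists, with exact 95% binomial intervals as bars and counts inside the columns. The 57 listed repair genes stand at 21.1% in HD and 14.0% in Ctrl, 105 further repair genes at 16.2% and 19.0%, and all coding genes but the 57 at 8.08% and 10.9%.

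The mark of FANCG, a subunit of the Fanconi core complex, rests on different sites in the lists. Its HD peak (chromosome 9, 35072635 to 35072839) touches the window at exactly 1000 bp from the far end of the gene, and its summit lies 117 bp from the end of VCP, a neighbouring gene for a segregase ATPase. It held 44 fragments (32.0 to 59.1), and the Ctrl peak that overlaps it ended just outside the window. The peak that marked the gene (35079658 to 35080163) lies over the start of FANCG itself, 216 bp inside the gene, with 22 fragments (13.8 to 33.3). FANCG was thus the repair gene nearest the limit on the inside, followed by DDB2, whose HD peak lies 408 bp from the end. Just outside were FANCM, with an HD peak at 1222 bp, ERCC1, with a Ctrl peak at 1708 bp, and RAD51B, with a Ctrl peak at 2504 bp. Without FANCG, 11 of 56 genes (19.6%) were marked in HD and 5 in both lists.

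In homologous recombination, 1 of 14 genes was marked in HD and 2 in Ctrl. BARD1, the partner of BRCA1 in a ubiquitin ligase, held 35 fragments (24.4 to 48.7) in HD and 26 (17.0 to 38.1) in Ctrl. These are 6.35 and 6.96 times the genome-wide mean of their lists, and both summits lie upstream of the gene, at 285 bp and 346 bp. The same peak is also within 1 kb of SNHG31, a non-coding RNA gene. RAD51C, a homologous recombination factor, held 31 fragments (21.1 to 44.0) in Ctrl only, in a peak over its start on chromosome 17 (58692508 to 58692795). The peak caller's expectation from input there was 2.24 times its genome-wide value, and the Ctrl fragments were 3.70 times that local expectation. BRCA1, BRCA2, PALB2, RAD51D, XRCC2, XRCC3, RAD50 and NBN had no peak near an end in either list. Neither did RAD54L, a DNA translocase of recombination, whose nearest HD peak was 5.61 kb and nearest Ctrl peak 24.9 kb away.

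RAD51B, MRE11 and RAD52 had peaks inside the gene that the rule on gene ends did not count. RAD51B spans 863318 bp and held 2 peaks in HD and 3 in Ctrl, the nearest 135 kb from an end. A pair of these, 1 from each list, overlapped on chromosome 14 (68458983 to 68459234 in HD, 68459065 to 68459340 in Ctrl), with 39 fragments in HD and 28 in Ctrl. MRE11, the nuclease of the break-sensing complex with RAD50 and NBN, held an HD peak of 27 fragments (17.8 to 39.3). Its summit lies 18.5 kb inside the gene as the gene table draws it, but 68 bp upstream of the start site that the RefSeq promoter table gives. RAD52, a recombination mediator, held a Ctrl peak of 20 fragments (12.2 to 30.9), 191 bp from a further start site of that table. Counted from any start site of the promoter table instead of from gene ends, 12 of 53 repair genes with an entry were marked in HD (22.6%, against 8.53% of other coding genes) and 9 in Ctrl (17.0%, against 11.8%).

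In the Fanconi anaemia pathway, which unhooks crosslinked strands, FANCA joined FANCG among the marked genes, so that 2 of 10 were marked in HD and 1 in Ctrl. FANCA, a subunit of the core complex, had an HD peak on chromosome 16 (89816648 to 89816850) with 29 fragments (19.4 to 41.6), 123 bp upstream of its start. The nearest Ctrl peak was 247 kb away. FANCB, FANCC, FANCD2, FANCE, FANCF, FANCI, FANCL and FANCM were unmarked in both lists. FANCC holds the G4 motif before its start, and its nearest HD peak was 6.48 kb away.

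In end joining, XRCC6 was marked in HD and 0 of 5 genes in Ctrl, with an interval that reaches 52.2%. XRCC6, a subunit of the Ku complex that caps broken ends, had an HD peak on chromosome 22 (41621040 to 41621348) of 36 fragments (25.2 to 49.8), 6.53 times the genome-wide mean. Its summit lies 164 bp upstream of XRCC6 and 88 bp from the end of DESI1, and the nearest Ctrl peak was 31.0 kb away. XRCC5, which encodes the other Ku subunit, XRCC4, LIG4 and PRKDC, the kinase that Ku recruits, had no peak in either list.

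In mismatch repair, 2 of 5 genes were marked in HD and 1 in Ctrl. MSH6, a subunit of the complex that detects mismatched bases, had an HD peak on chromosome 2 (47782921 to 47783185) of 42 fragments (30.3 to 56.8). This is 7.62 times the genome-wide mean, and it ranked at 524 of 2269 by −log10 q, first among the HD peaks of the repair genes. The nearest Ctrl peak was 96.6 kb away. PMS2, the nuclease subunit that nicks the strand to be repaired, held the most fragments of the group in each list, 45 (32.8 to 60.2) in HD and 36 (25.2 to 49.8) in Ctrl. The input expectation at PMS2 was also the highest at a repair gene in HD, 3.05 times genome-wide, and stood at 2.15 times in Ctrl. Relative to it the summit had 2.68 times the expected fragments in HD and 4.49 times in Ctrl. The gene table lists 15 genes named as PMS2 pseudogenes or copies, so reads may be split between PMS2 and near-identical sequence. The PMS2 summits also lie 116 bp (HD) and 85 bp (Ctrl) from the end of AIMP2, a scaffold of tRNA synthetases. MSH3, MLH3 and PMS1 were unmarked.

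In nucleotide excision repair, 3 of 11 genes were marked in HD and 2 in Ctrl, with ERCC4 in both. ERCC4 encodes the nuclease subunit XPF, which cuts on the 5′ side of a lesion. Its peaks (chromosome 16, 13919896 to 13920209 in HD and 13919860 to 13920180 in Ctrl) held 44 fragments (32.0 to 59.1) in HD and 32 (21.9 to 45.2) in Ctrl. DDB2 and DDB1 are partners that detect ultraviolet lesions, and DDB2 was marked in HD only and DDB1 in Ctrl only. DDB2 had an HD peak of 29 fragments (19.4 to 41.6) with its summit 499 bp inside the gene. DDB1 had a Ctrl peak of 20 fragments (12.2 to 30.9), 82 bp upstream of its start and 41 bp from the end of TKFC. ERCC6, the ATPase that acts where a polymerase stalls at a lesion, had an HD peak of 27 fragments (17.8 to 39.3), 366 bp inside the gene. ERCC1, ERCC2, ERCC3, ERCC5, ERCC8, XPA and XPC were unmarked.

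In base excision repair and ligation, 2 of 7 genes were marked in HD and 1 in Ctrl. LIG1, the ligase that joins Okazaki fragments, held 32 fragments (21.9 to 45.2) in HD and 26 (17.0 to 38.1) in Ctrl. Its summits lie 150 bp (HD) and 79 bp (Ctrl) upstream of its start, 37 bp and 34 bp from the centre of the motif shown above. The BARD1 summits lie upstream of the bases shown, 252 bp (HD) and 313 bp (Ctrl) from the centre of the motif nearest its start, with the others of its 3 motifs in between. OGG1, the glycosylase for oxidised guanine, had an HD peak of 25 fragments (16.2 to 36.9), 4.54 times the genome-wide mean, 234 bp inside the gene, and the nearest Ctrl peak was 18.4 kb away. This was the lowest number at a repair gene in HD. XRCC1, LIG3, UNG, APEX1 and FEN1 were unmarked, although XRCC1 and FEN1 hold the motif.

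Of 5 break signalling and post-replication repair genes, TP53BP1 was marked in both lists. It encodes a chromatin reader that limits resection at breaks. It held 26 fragments (17.0 to 38.1) in HD and 25 (16.2 to 36.9) in Ctrl, 4.72 and 6.69 times the genome-wide mean of each list. The summits lie 220 bp (HD) and 174 bp (Ctrl) upstream of its start, and nearer to MAP1A, at 94 bp and 140 bp. The HD summit lies 74 bp and the Ctrl summit 28 bp from the centre of the TP53BP1 motif. RIF1, MDC1, H2AX and RAD18 were unmarked, and RIF1 holds the motif.

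**Figure D2:**
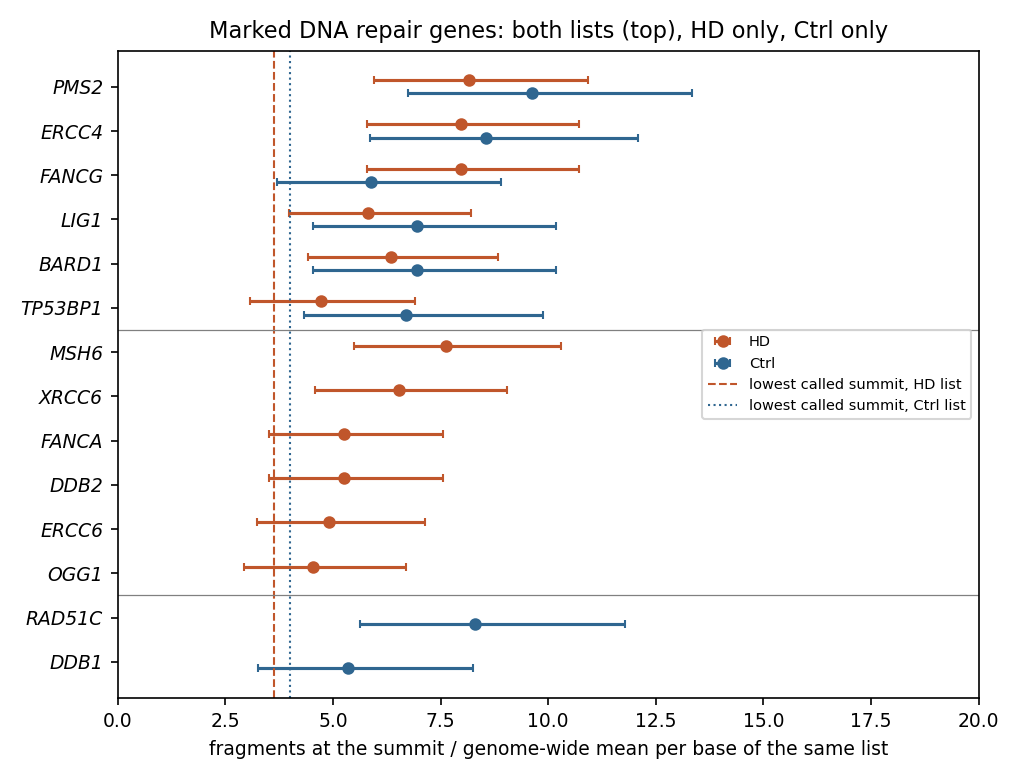
Fragments at the summit of each repair gene's peak, divided by the genome-wide mean per base of the same list, with exact 95% Poisson intervals; dashed and dotted lines mark the lowest called summit of the HD and Ctrl lists, at 3.63 and 4.01. The HD points run between 4.54 (OGG1) and 8.16 (PMS2) and the Ctrl points between 5.35 (DDB1) and 9.63 (PMS2), and the FANCG points belong to different sites.

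At the genes marked by overlapping peaks, the numbers of fragments in the lists did not differ beyond counting error once depth was taken into account. The HD to Ctrl ratio of fragments, divided by the depth ratio of 1.47, was 0.932 (interval 0.578 to 1.52) at ERCC4 and 0.913 (0.534 to 1.58) at BARD1. It was 0.848 (0.535 to 1.35) at PMS2, 0.835 (0.482 to 1.46) at LIG1 and 0.705 (0.391 to 1.27) at TP53BP1. All 5 ratios were below 1 and all 5 intervals included 1. Of 828 other pairs of overlapping peaks at coding gene ends, 72.5% had a ratio below 1, with a median of 0.889 and quartiles of 0.770 and 1.02, so the repair genes lay in the range of the rest. Summits of a pair lay 31 to 71 bp apart.

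**Figure D3:**
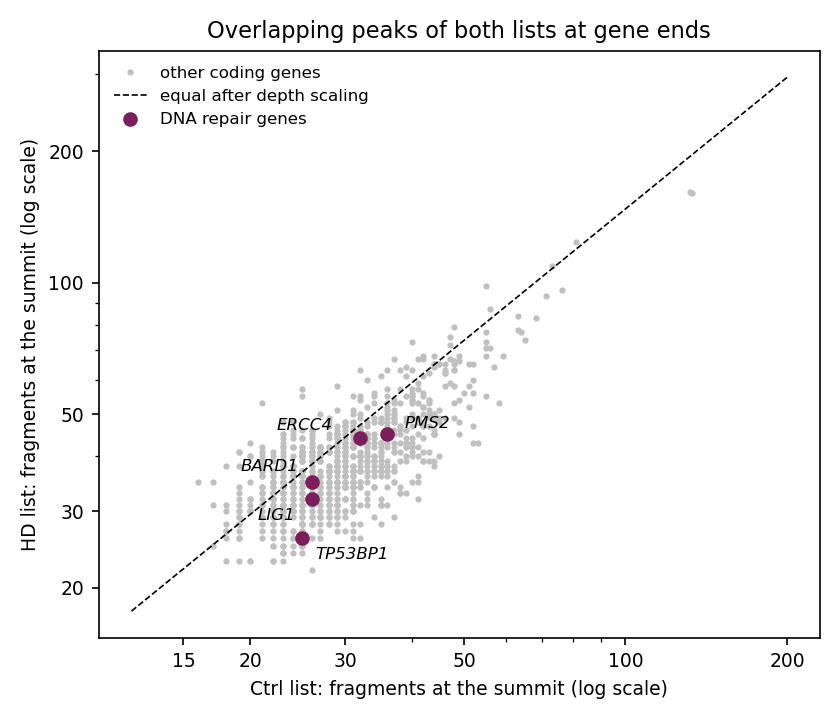
Fragments at overlapping summits of the HD list (vertical, log scale) and the Ctrl list (horizontal, log scale) at coding gene ends. The line marks equal numbers after scaling by depth; the 5 repair genes lie below it among 828 other pairs.

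Set against the local expectation, the same peaks had lower values in HD, but the intervals of the lists overlapped at all 5 genes. The fragments over the expectation from input were 4.17 in HD and 6.96 in Ctrl at BARD1, and 3.49 in HD and 5.36 in Ctrl at ERCC4. At TP53BP1 they were 4.67 and 6.60, at PMS2 2.68 and 4.49, and at LIG1 3.27 and 4.02 in HD and Ctrl. HD was the lower of the pair at all 5 genes, as at 59.9% of the 828 other pairs. The overlapping intervals were, for example, 2.90 to 5.80 in HD and 4.54 to 10.2 in Ctrl at BARD1. At PMS2 they were 1.95 to 3.59 in HD and 3.14 to 6.21 in Ctrl. The local expectation relative to its genome-wide value, which takes out depth, was 1.52 in HD and 1.00 in Ctrl at BARD1, 2.28 and 1.60 at ERCC4, and 3.05 and 2.15 at PMS2. It was 1.78 in HD and 1.73 in Ctrl at LIG1, and 1.01 in each list at TP53BP1, so a higher expectation went with the lower HD value mainly at BARD1, ERCC4 and PMS2. The HD to Ctrl ratio of fragments over expectation was 0.599 at BARD1, 0.651 at ERCC4 and 0.597 at PMS2. The depth-scaled fragment ratios there were 0.913, 0.932 and 0.848. At TP53BP1 these ratios were 0.706 and 0.705, and at LIG1 0.813 and 0.835. The expectation comes from 1 input library per condition. Its counting error, and so how firm its part in the lower ratios is, was not tested.

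Most repair genes marked in 1 list only had a peak below the lower quartile of that whole list, as did some marked in both. The matching share for other coding genes marked in 1 list only is not given here. FANCA, DDB2, ERCC6 and OGG1, with 25 to 29 fragments, lay below the lower quartile of the HD list, 31, and MSH6 and XRCC6 above it. DDB1 lay below the lower quartile of the Ctrl list, 23, and RAD51C above it. Of the genes marked in both lists, TP53BP1 in HD (26 fragments) and FANCG in Ctrl (22) also lay below these quartiles. The other peaks of those genes lay above them. MSH6 and XRCC6 would have 28.5 and 24.4 fragments at the Ctrl depth, while the lowest number at a called Ctrl summit was 15. FANCA and DDB2 would each have 19.7, ERCC6 18.3 and OGG1 17.0. In the other direction RAD51C would have 45.7 and DDB1 29.5 fragments at the HD depth, where the lowest called summit had 20. These lowest numbers were found where the local expectation equals the genome-wide value, and a call takes more fragments where it is higher. In its own list it was 2.24 times genome-wide at RAD51C and 1.38 times at MSH6. At the others it ran from 1.00 (FANCA) to 1.17 (DDB2). The part of depth in the missing calls was not tested. A gene without a peak has only no call, and the fragments at uncalled sites were not used here.

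The peaks of repair genes ranked lower than other coding gene-end peaks in HD and close to them in Ctrl. Counted from the top of the list, the median rank was at 71.6% in HD, against 49.0%, and at 43.2% in Ctrl, against 45.2%. None of the 12 HD peaks and none of the 8 Ctrl peaks was among the strongest 10% by −log10 q, where 6.28% of 1306 other coding gene-end peaks lay in HD and 8.21% of 1803 in Ctrl. With so few peaks, shares of this size cannot show a difference. Only 3 of the 12 HD peaks (25%), those of MSH6, FANCG and XRCC6, were in the upper 50% of the HD list, against 51.1% of other coding gene-end peaks. In Ctrl 4 of 8 were, those of BARD1, ERCC4, TP53BP1 and PMS2, against 55.3%. The median number of fragments was 33.5 for repair genes in HD, against 36 for the other gene-end peaks, and 26 in Ctrl, against 27. Numbers within the group ran from 25 to 45 fragments in HD and from 20 to 36 in Ctrl. The quartiles in HD were 28.5 and 42.5, against 31 and 42 for the other gene-end peaks. In Ctrl they were 24.25 and 31.25, against 23 and 32.

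Peaks lay at gene starts. The promoter table gives a strand for all marked repair genes, and the summit was nearer the start than the other end at 11 of 12 genes in HD, all but FANCG, and at 8 of 8 in Ctrl. The same held for 94.2% of other coding genes in HD and 95.8% in Ctrl. At the start, the summit was upstream at 8 of 11 genes in HD, against 79.9% of others, with a median position of -123 bp from the start for repair genes and -106 bp for others. In Ctrl it was upstream at 6 of 8, against 79.1%, with medians of -81.5 bp and -93 bp. DDB2, ERCC6 and OGG1 in HD and FANCG and RAD51C in Ctrl had their summit inside the gene.

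**Figure D4:**
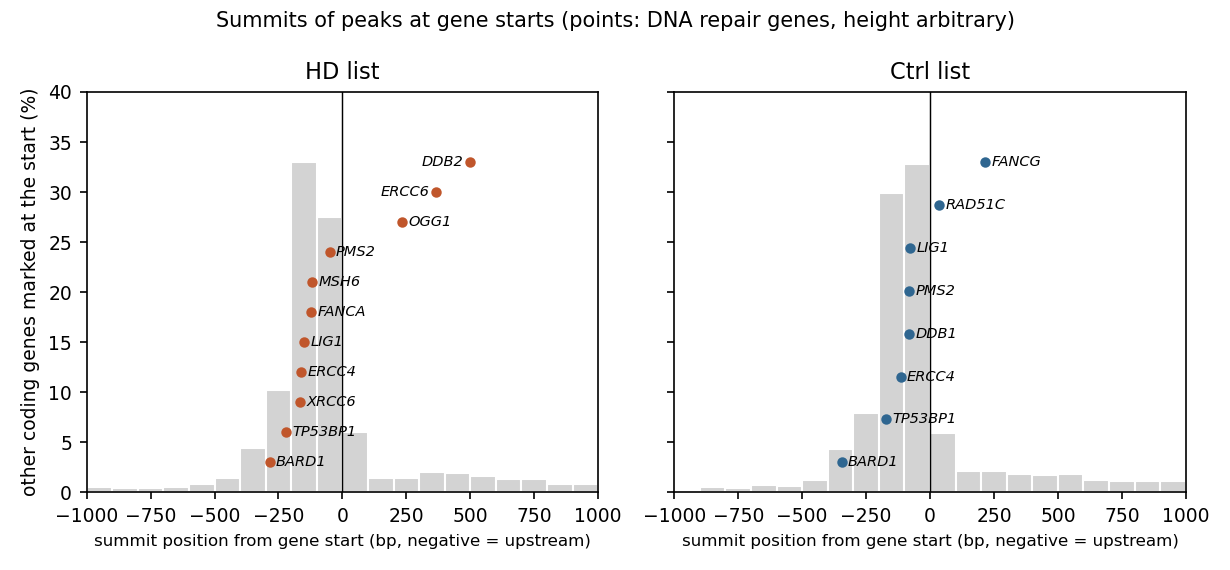
Position of the peak summit relative to the gene start (bp, negative is upstream) for repair genes (points, at arbitrary heights) over the distribution for other coding genes marked at their start (grey bars of 100 bp, per cent), HD list left and Ctrl list right. Most points lie in the 250 bp before the start, where the bars are highest, and DDB2, at 499 bp inside the gene in HD, lies farthest downstream.

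Several of these starts are shared with a neighbour. Of the marked repair genes, 5 of 12 in HD and 5 of 8 in Ctrl had a peak within 1 kb of another coding gene as well, against 37.2% and 35.9% of other marked coding genes. The coding neighbours were VCP, DESI1, ZSWIM9, MAP1A and AIMP2 in HD, and ZSWIM9, MAP1A, AIMP2, TKFC, TEX14 and IGBP1C in Ctrl. When each peak was given only to the coding gene whose end was nearest its summit, 9 repair genes remained in HD (15.8%, against 6.55% of others), without FANCG, XRCC6 and TP53BP1. In Ctrl 6 remained (10.5%, against 8.99%), without DDB1 and TP53BP1. Non-coding genes were not counted there, and the ends of SNHG31 and LOC124903647 lie nearer the summits than BARD1 and ERCC4 do, in both lists.

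The promoter sequence of the repair genes held the G4 motif no more often than that of other genes. Of 53 repair genes with a promoter entry (250 bases before to 50 after the start), 10 hold the motif on either strand (18.9%, interval 9.44 to 32.0), against 30.2% of 15759 other coding genes. The table covers 79.8% of all coding genes. NBN, FANCI, XRCC5 and PRKDC have no entry there. The 10 are BARD1, LIG1, TP53BP1, RAD54L, FANCC, MSH3, XRCC1, FEN1, RAD51D and RIF1, with the runs of G on the gene's own strand at FEN1, RAD51D and RIF1 and on the opposite strand at the other 7. Motif promoters were marked at 3 of 10 repair genes in each list, the same 3 (BARD1, LIG1 and TP53BP1), and promoters without it at 9 of 43 in HD (20.9%) and 5 of 43 in Ctrl (11.6%). Among other coding genes 10.3% of promoters with the motif and 7.70% of those without were marked in HD, and 14.0% and 10.3% in Ctrl. Of the repair genes marked in HD, 3 of 12 (25%) hold the motif, against 36.6% of the other coding genes marked in HD. A match is a description of the letters and not a folded G4.

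G and C content of the promoter was close to that of other genes. The median was 63.7% for repair genes and 62.7% for others, and 65.2% for marked repair genes and 67.3% for other marked genes. Across quintiles of G and C content the share marked in HD was 0 of 4 repair genes in the lowest, then 2 of 12 (16.7%), 4 of 17 (23.5%), 3 of 13 (23.1%) and 3 of 7 (42.9%). The shares of other coding genes were 1.72%, 5.19%, 9.42%, 13.7% and 12.01%. In Ctrl the repair genes stood at 0 of 4, 1 of 12, 2 of 17, 3 of 13 and 2 of 7, and other coding genes at 2.08%, 7.96%, 12.9%, 17.6% and 15.8%.

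The 105 further repair genes, in 7 sets, were marked at 17 in HD (16.2%, interval 9.72 to 24.7) and 20 in Ctrl (19.0%, 12.04 to 27.9). Coding genes outside the 57, which include them, stood at 8.08% in HD and 10.9% in Ctrl. Of the further genes, 10 were marked in both lists, 7 in HD only and 10 in Ctrl only. The larger share in HD than in Ctrl among the 57 was thus not seen in these genes. Damage kinase, clamp and checkpoint genes had the highest shares of the 7 sets. They were marked at 5 of 15 in HD (33.3%, interval 11.8 to 61.6) and 6 in Ctrl (40%, 16.3 to 67.7). ATM, the apical break kinase, held 30 fragments in HD and 24 in Ctrl, and WEE1, a kinase that holds back mitosis, held 39 and 29. RAD1, a subunit of the checkpoint clamp, held 37 and 25, and TIPIN, of the fork protection complex, held 58 and 29. ATRIP was marked in HD only, and CHEK2 and CDC25A in Ctrl only. In recombination and crosslink repair 4 of 26 were marked in HD and 7 in Ctrl. SLX4, SLX1A, RECQL4 and USP1 were marked in both and BLM, BRIP1 and FAAP24 in Ctrl only, and SLX1A has a near-identical copy, SLX1B. Among base excision genes, those marked in HD only included PARP1, APTX and NTHL1, and those marked in Ctrl only included PARP2, NEIL2 and MBD4. In end joining POLM and APLF were marked in both lists, of 11. ABRAXAS1 was marked in HD only and RNF168 in Ctrl only, of 7 ubiquitin signalling genes. RFC2 was marked in HD only and POLH in Ctrl only, of 17 reversal and translesion genes. Nucleotide excision genes outside the 57 were marked at 0 of 13 in each list, with an interval that reaches 24.7%. The depth-scaled HD to Ctrl ratio at the 10 genes marked in both ran from 0.574 (0.310 to 1.05) at USP1 to 1.36 (0.854 to 2.197) at TIPIN, with 7 of 10 below 1.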

How the data were processed

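BG4 ChIP-seq lists were analysed for U2OS cells with and without 1,6-hexanediol. Bowtie2 2.5.0, SAMtools, MACS2 2.2.7.1, FastQC 0.11.9 and the build hg38 are listed, without settings, in the submitters' processing notes. The authors deposited 1 MACS2 list per condition, with a fold (a ratio over local background), −log10 p and −log10 q for each peak. The labels tie each list to both ChIP libraries. Per the labels, cells were fixed with formaldehyde at 1% for 10 min. Input files were not analysed here.

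Fragments at summits were recovered from the authors' fold and −log10 p, because both depend on a whole number of fragments and on the expectation from input. Within a tolerance of 0.01, the −log10 p deposited by the authors was met by a whole number for 99.7% of HD and 99.9% of Ctrl peaks, and for 4.10% and 4.90% several numbers did, of which the closest was taken. On lists of 1500 peaks simulated with the formulas that the recovery inverts, 100.0% of the fragment numbers scored came back. Only the stronger simulated peaks were scored, and their fragment numbers did not reach down to the lowest of the real lists. The recovery was therefore not checked for the weakest peaks. Depth was taken as the genome-wide expectation divided by the caller's scale.

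Genes came from a RefSeq table of GRCh38.p14, without genes on scaffolds. An overlap of 1 bp counted as shared. Promoter overlaps of opposite genes were reverse complements in 738 of 738 pairs. No test was run, since there is 1 list per condition. Every marked gene of the 57 is named, and the marked genes of 105 further repair genes, of which 1 is not reported here by name. Members and lists were chosen with earlier results of these data known. Computation used Python 3.11.15, numpy 2.4.6, pandas 2.3.3 and scipy 1.17.1. Alternatives were windows, q thresholds, equal list lengths, summit positions, single genes per peak, start sites and motif definitions.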

Additional observations from a re-analysis of the deposited data

How the results depend on the processing

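The counts of marked genes, of shared peaks and the motif share were recomputed under 14 settings, which gave 55 values. Of these, 53 stayed close to the value reported, which means within 1.5 times for a count and inside its interval for the motif share. The exceptions were 1 Ctrl count and 1 motif share. The share of genes behind that Ctrl count still lay inside the interval reported, 6.26 to 25.8. With equal list lengths the Ctrl list marked 5 repair genes in place of 8 (8.77%, against 7.82% of other coding genes), without DDB1, LIG1 and RAD51C, all of them below the strongest 2172 peaks, so that 7 genes were then marked in HD only and 0 in Ctrl only. With runs of 2 or more G the motif was found in 98.1% of repair gene promoters, since most promoters (89.1% of other coding genes) hold it under that definition. With loops of up to 12 bases the share was 30.2%, against 45.2% of other coding genes. The HD count ran from 9 to 13 over the settings, genes marked in HD only from 5 to 7 and in Ctrl only from 0 to 4. It was 9 at −log10 q of at least 3, without LIG1, OGG1 and PMS2, and 13 with a window of 2 kb, which added FANCM. Counting from any annotated start and leaving out FANCG were chosen after seeing the data. The lowest called summits had 20 fragments in HD and 15 in Ctrl, and the part of depth in these limits was not tested. No paired analysis was possible because each condition has 1 list and no values per library, and leaving out a replicate was not possible for the same reason.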
